A study of Mus musculus with 9 samples.

Results

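The 10 genes described here, Tgfb1, Tgfb2, Tgfb3, Inhba, Bmp4, Bmp7, Tgfbr1, Tgfbr2, Ltbp1 and Tgfbi, encode ligands, receptors, a latency protein and an induced matrix protein of transforming growth factor beta (TGF-beta) and bone morphogenetic protein (BMP) signalling. They were chosen by name, with earlier results of these data known. Each was read from the array row whose platform annotation gives its symbol alone; every one of the 10 had a single such row, and together they are 10 of 22180 genes measured. RNA from whole mouse corneas was hybridised to 9 single-colour arrays in 3 groups of 3, and every array held a separate pool of 10 corneas from 5 mice. Mutant mice bore the corn1 mutation of Dstn, which encodes the actin-depolymerising protein destrin. Rescued mice bore the same mutation, and in addition Srf, which encodes serum response factor, had been removed genetically from the corneal epithelial cells. Wild-type (WT) mice formed the remaining group. All mice, WT included, received doxycycline by intraperitoneal injection from postnatal day 28 to postnatal day 58, were collected at postnatal day 58 and came from a mixed background of FVB, Swiss Black, 129, C57BL6/J and A.BY. The labels do not name the promoter that drove the ablation or say whether the WT and mutant mice carried its transgenes or a conditional Srf allele. Srf was ablated in the epithelium but the whole cornea was measured, so the stroma, the corneal endothelium and any vessels contributed RNA to every value.

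TGF-beta family ligands are secreted as dimers. TGF-beta itself is released in a latent complex that latent TGF-beta binding proteins tether to the matrix, and it must be freed before it can bind a type II receptor, which then activates a type I receptor. The type I receptor phosphorylates Smad proteins, which join Smad4 and regulate genes in the nucleus; TGF-beta and activin act mainly through Smad2 and Smad3 and BMPs through Smad1, Smad5 and Smad9. In the cornea the pathway is best known for its part in wound healing, where TGF-beta drives keratocytes towards the contractile myofibroblast and restrains epithelial proliferation.

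The promoters of the receptor genes, which moved in opposite directions, and of Inhba and Ltbp1, which showed the largest mutant minus WT differences, are shown first so that the values can be read beside the sequence; of the Ltbp1 and Tgfbr1 windows, 1 each is given. RefSeq promoter windows (GRCm38.p6) were found for 8 of the 10 genes, in 10 windows because Tgfbr1 and Ltbp1 have more than 1 start. Each line gives the 250 bases before the start, 5′ to 3′ on the strand of the gene. The windows lie at chr13:16011601-16011850 (plus strand, Inhba), chr9:116175364-116175613 (minus strand, Tgfbr2), chr4:47352972-47353221 (plus strand, the upstream start of Tgfbr1) and chr17:75178531-75178780 (plus strand, the downstream start of Ltbp1). Capitals mark matches to the motifs searched on both strands, which were the CArG box bound by serum response factor, TGANTCA for the AP-1 factors, GGAATG for the TEAD factors, and for Smad proteins GTCTAGAC, the short element CAGACA and the palindrome GGCGCC.
Inhba: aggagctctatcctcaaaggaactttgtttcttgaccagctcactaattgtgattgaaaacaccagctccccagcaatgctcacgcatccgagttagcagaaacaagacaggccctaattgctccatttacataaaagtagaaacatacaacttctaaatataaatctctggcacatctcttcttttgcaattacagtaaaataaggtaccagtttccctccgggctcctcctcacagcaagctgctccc
Tgfbr2: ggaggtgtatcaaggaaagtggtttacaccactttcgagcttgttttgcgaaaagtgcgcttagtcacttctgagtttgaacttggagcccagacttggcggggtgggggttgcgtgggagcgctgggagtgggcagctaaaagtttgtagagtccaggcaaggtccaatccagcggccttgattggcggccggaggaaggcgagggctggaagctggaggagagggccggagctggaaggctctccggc
Tgfbr1: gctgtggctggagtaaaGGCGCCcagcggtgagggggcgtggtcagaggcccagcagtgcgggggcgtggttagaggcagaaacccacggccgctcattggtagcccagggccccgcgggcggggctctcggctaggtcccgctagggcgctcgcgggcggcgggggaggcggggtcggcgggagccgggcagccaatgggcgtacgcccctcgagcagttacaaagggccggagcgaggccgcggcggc
Ltbp1: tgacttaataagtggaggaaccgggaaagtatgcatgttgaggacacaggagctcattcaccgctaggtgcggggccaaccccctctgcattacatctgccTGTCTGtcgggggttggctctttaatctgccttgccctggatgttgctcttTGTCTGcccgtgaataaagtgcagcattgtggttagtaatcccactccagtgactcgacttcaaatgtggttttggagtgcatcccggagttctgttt
The downstream Ltbp1 window held CAGACA on the minus strand in 2 places (read as TGTCTG on the strand shown), and the upstream Tgfbr1 window held GGCGCC, which is its own reverse complement, in 1 place. The Inhba and Tgfbr2 windows and the upstream Ltbp1 window, which is not shown, held none of these letters. Over all 10 windows the short Smad element was in 3 (Tgfb2, the downstream Tgfbr1 start and the downstream Ltbp1 start) and the Smad palindrome GGCGCC in 2 (the upstream Tgfbr1 start and Tgfbi). No window of the 8 genes held a CArG box or the letters listed for AP-1 and TEAD factors, and none held GTCTAGAC. Of all 32841 promoter windows of this length, 1.47% held a CArG box, 6.75% the AP-1 letters, 12.6% the TEAD letters, 0.167% GTCTAGAC, 17.1% the short Smad element and 9.59% the palindrome. The matches did not overlap each other.

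Intensities are given as log2 values, normalised between arrays by the authors, and levels of different genes are not comparable because every row has its own probes. A group mean under 6.77, the median of all rows, was not taken as signal above background, and a fold against such a group is given as a lower bound. Differences were fitted with limma over all 22180 genes and a difference was called where the adjusted p (Benjamini-Hochberg) was under 0.05; n is 3 pools a group throughout, and ± is the SD over pools. The 3 comparisons share arrays, so that a high mutant value raises one difference and lowers another.

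The labels were checked on the targeted genes. Dstn had log2 intensities of 12.55 to 12.59 in WT, 5.54 to 5.80 in mutant and 5.61 to 5.62 in rescued pools. Srf lay at 8.98 to 9.23 in WT, 10.55 to 10.77 in mutant and 8.45 to 9.45 in rescued pools. Corneal epithelial markers were present, with a mean over 5 markers of 12.88 to 13.07 on all 9 arrays. The pools differed in sex-linked expression within groups and, for Y-linked genes, also between groups. Averaged over 3 Y-linked genes, log2 intensity was 5.34 in WT replicate 1 and 5.15 in WT replicate 3. It was 7.16 to 9.77 in the other 7 pools, which include every mutant and rescued pool. Xist was at 6.12 in mutant replicate 2 and at 11.76 to 12.94 in the other 8 pools. The part of these differences in the values below was not tested.

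Of the 10 genes, 6 differed among the 3 groups by the moderated F test (limma, adjusted p under 0.05), against 29.4% of all genes. The shares over all genes include genes under 6.77, whereas 8 of the 10 genes had every group mean at or above it. Apart from leaving out 1 array, every alternative called at least 6661 genes between mutant and WT. These include the filter that left 12696 genes. The shares were therefore not matched for brightness. Between mutant and WT, 4 rose (Inhba, Ltbp1, Tgfbr2 and Tgfb1) and 1 fell (Tgfbr1), against 31.6% of all genes called, 15.1% higher and 16.5% lower. Between rescued and mutant, 3 were lower in rescued (Inhba, Bmp7 and Tgfb1) and none was higher, against 13.3% of all genes called, 6.46% higher and 6.88% lower. At an unadjusted p under 0.05 (limma), 7 of the 10 were lower in rescued than mutant and still none was higher, against 14.4% of all genes lower and 12.6% higher at that threshold. Between rescued and WT, 2 were higher (Inhba and Tgfbr2) and 2 lower (Bmp7 and Tgfbr1), against 13.7% of all genes, 6.28% higher and 7.43% lower. The median log2 difference of the 10 genes was 0.30 for mutant minus WT, −0.28 for rescued minus mutant and 0.04 for rescued minus WT, against −0.016, −0.002 and −0.015 over all genes. The mutant and WT pools did not overlap in 6 of the 10 genes, 5 higher and 1 lower in mutant, against 44.7% of all genes, 21% higher and 23.7% lower. In bulk samples, fewer cells of a type and less RNA per cell cannot be told apart.

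**Figure D1:**
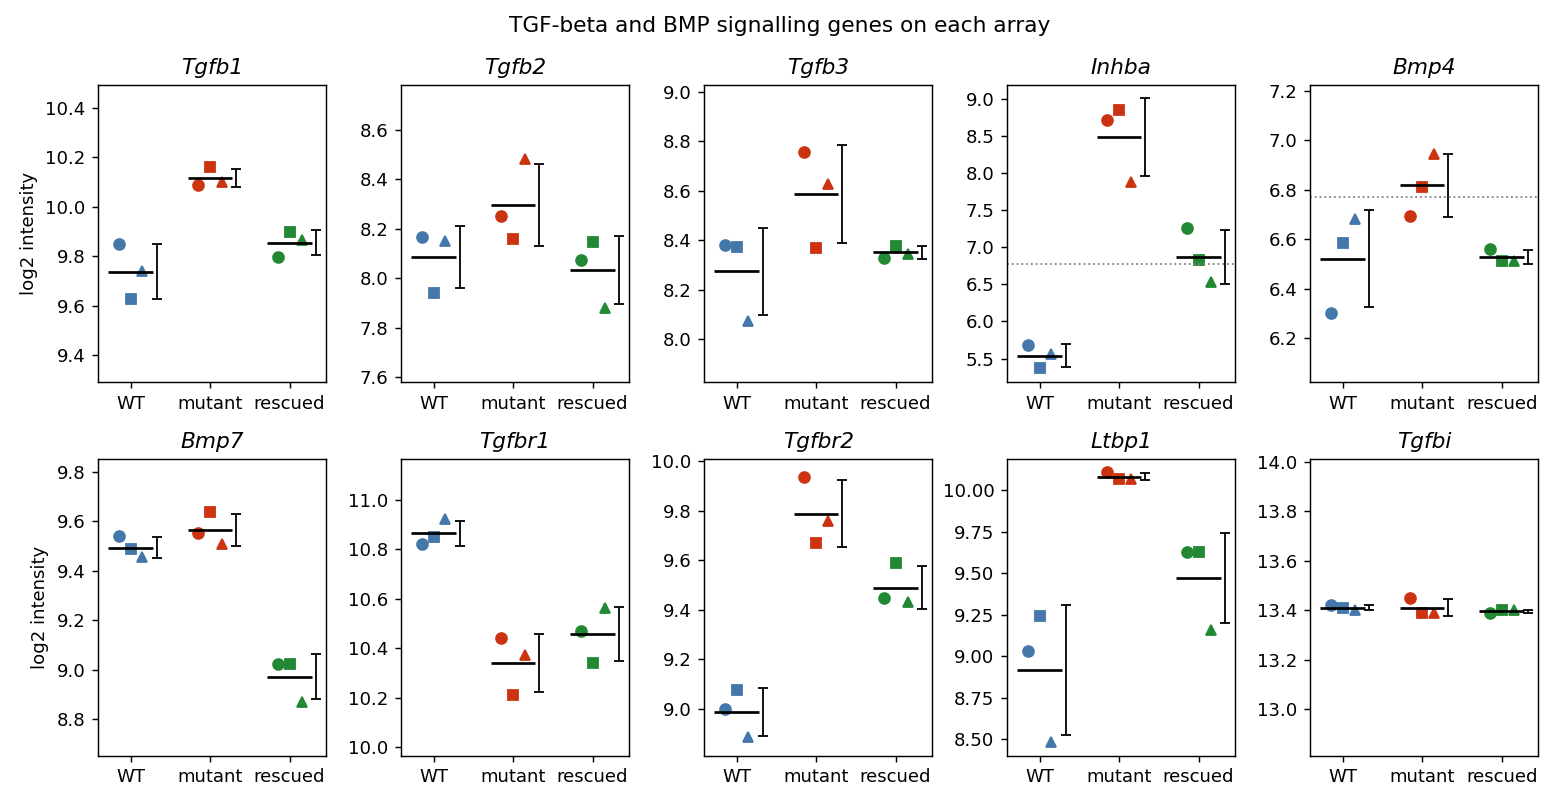
Log2 intensity of each of the 10 genes on the 9 arrays, in a panel per gene with its own axis; circles, squares and triangles are replicates 1, 2 and 3, the horizontal bar is the group mean and the bracket its SD (n = 3), and the dotted line in the Inhba and Bmp4 panels is the median of all rows, 6.77. The Inhba groups are fully separated, the rescued Bmp7 pools lie below the other 6, and Tgfbi stays within 13.39 to 13.45.

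Inhba, the gene for the beta A subunit of activin A and of inhibin A, showed the largest difference of the 10 genes. Its log2 intensity was 5.68, 5.37 and 5.57 in the WT pools, 8.71, 8.85 and 7.88 in the mutant pools and 7.25, 6.83 and 6.53 in the rescued pools. The 3 groups did not overlap: every mutant pool lay above every rescued pool, and every rescued pool above every WT pool. Rescued pools were separate from mutant pools in 32.2% of all genes and from WT pools in 31.6%. Relative to WT, mutant Inhba was at least 7.67-fold higher (log2 difference 2.94, SE 0.25, limma adjusted p = 2.04e-05). Rescued Inhba was 3.04-fold lower than mutant (log2 difference −1.61, SE 0.25, adjusted p = 0.00275). Against WT it was at least 2.52-fold higher (log2 difference 1.33, adjusted p = 0.00763). Mutant replicate 3 was the lowest mutant pool, and the mutant minus WT difference was 2.76 to 3.24 when any 1 array was left out.

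Patterns over the 9 arrays were compared by the root mean square distance between gene-centred log2 profiles. Symbols of gene models, clones, small RNAs and olfactory or vomeronasal receptors were left out. Closest to Inhba were Nr4a1 (distance 0.24), Nr4a3 (0.26) and Sytl2 (0.27). Nr4a1 and Nr4a3 encode orphan nuclear receptors of the immediate early class, and Sytl2 a synaptotagmin-like protein. Nr4a1 averaged 7.13, 10.07 and 8.48 in WT, mutant and rescued pools, and Nr4a3 averaged 5.53, 8.25 and 6.82. Sytl2 averaged 6.10, 9.32 and 7.58.

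Among the 3 TGF-beta ligand genes, Tgfb1, which encodes the isoform most tied to wound repair, was the only one called. Its log2 intensity was 9.85, 9.63 and 9.74 in WT, 10.09, 10.16 and 10.10 in mutant and 9.80, 9.90 and 9.87 in rescued pools. All mutant pools lay above all others, and the WT and rescued pools overlapped. Mutant Tgfb1 was 1.30-fold higher than WT (log2 difference 0.38, SE 0.07, limma adjusted p = 0.00247), a call kept in 17 of 17 alternative analyses. The rescued pools were 1.2-fold lower than the mutant (log2 difference −0.26, SE 0.07, adjusted p = 0.0379). That call was lost when any of the 3 mutant pools, any of the 3 rescued pools or WT replicate 3 was left out, at adjusted p = 0.0533 to 0.11, while the difference stayed between −0.28 and −0.23; over all its alternatives the adjusted p ran from 0.0116 to 0.11. Between rescued and WT the log2 difference of Tgfb1 was 0.12 (95% interval −0.04 to 0.27, adjusted p = 0.341).

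Tgfb2, the isoform gene prominent in ocular tissues and aqueous humour, had log2 intensities of 7.94 to 8.17 in WT, 8.16 to 8.48 in mutant and 7.88 to 8.15 in rescued pools. Mutant pools overlapped with WT pools and lay above all rescued pools. The differences were 0.21 (95% interval −0.03 to 0.45, limma adjusted p = 0.173) for mutant minus WT and −0.26 (−0.50 to −0.02, adjusted p = 0.144) for rescued minus mutant, and neither passed. Tgfb3, the third isoform gene, had 8.38, 8.37 and 8.07 in WT, 8.76, 8.37 and 8.63 in mutant and 8.33, 8.38 and 8.35 in rescued pools. Mutant replicate 2 lay among the WT values and the other 2 mutant pools above them. The mutant minus WT difference of Tgfb3 was 0.31 (95% interval 0.06 to 0.56, adjusted p = 0.0616), and without mutant replicate 2 it was 0.42 and passed (adjusted p = 0.0155); over the alternatives the adjusted p ran from 0.0155 to 0.201. The 3 rescued Tgfb3 values all lay inside the WT range, and 2 of them lay below the lowest mutant pool.

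Bmp7, the gene for a BMP ligand that opposes TGF-beta effects in several epithelia, differed in the rescued pools from both other groups. Its log2 intensity was 9.54, 9.49 and 9.45 in WT, 9.55, 9.64 and 9.51 in mutant and 9.02, 9.02 and 8.87 in rescued pools. WT and mutant pools overlapped, and every rescued pool lay below all 6 of them. Rescued Bmp7 was 1.51-fold lower than mutant (log2 difference −0.59, SE 0.07, limma adjusted p = 0.000536) and 1.44-fold lower than in WT (log2 difference −0.52, SE 0.07, adjusted p = 0.00123). Both calls were kept in 17 of 17 alternatives. Between mutant and WT the difference was 0.07 (95% interval −0.08 to 0.22, adjusted p = 0.487).

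Bmp4, the gene for a BMP ligand made by stromal and epithelial cells, lay close to the median of all rows, at 6.30, 6.58 and 6.68 in WT, 6.69, 6.81 and 6.95 in mutant and 6.56, 6.51 and 6.51 in rescued pools. The mutant pools all lay above the others, though the lowest mutant pool (6.69) was next to the highest WT pool (6.68). Bmp4 did not pass in any comparison: the difference was 0.30 (95% interval 0.07 to 0.52, limma adjusted p = 0.0523) for mutant minus WT and −0.29 (−0.52 to −0.06, adjusted p = 0.0969) for rescued minus mutant. The first passed without mutant replicate 1 (adjusted p = 0.0438) or WT replicate 3 (adjusted p = 0.0266), within a range of 0.0266 to 0.171 over the alternatives. The second passed without WT replicate 1 (adjusted p = 0.0432), within a range of 0.0432 to 0.273.

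The receptor genes moved in opposite directions. Tgfbr1, the gene for the type I TGF-beta receptor that phosphorylates Smad2 and Smad3, had log2 intensities of 10.82, 10.85 and 10.92 in WT, 10.44, 10.21 and 10.37 in mutant and 10.47, 10.34 and 10.56 in rescued pools. Every WT pool lay above every mutant and every rescued pool, and those latter groups overlapped. Relative to WT, Tgfbr1 was 1.44-fold lower in mutant (log2 difference −0.53, SE 0.08, limma adjusted p = 0.00083) and 1.33-fold lower in rescued pools (log2 difference −0.41, adjusted p = 0.0105). The rescued minus mutant difference was 0.12 (95% interval −0.06 to 0.31, adjusted p = 0.399).

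Tgfbr2, the gene for the type II receptor that binds TGF-beta first, had 9.0, 9.08 and 8.88 in WT, 9.94, 9.67 and 9.76 in mutant and 9.45, 9.59 and 9.43 in rescued pools. The rescued pools lay between the other groups, with no overlap. Relative to WT, Tgfbr2 was 1.74-fold higher in mutant (log2 difference 0.80, SE 0.09, limma adjusted p = 8.79e-05) and 1.42-fold higher in rescued pools (log2 difference 0.50, adjusted p = 0.00501). The rescued minus mutant difference of −0.30 (SE 0.09, adjusted p = 0.0507) did not pass. It passed in 7 of 17 alternatives, including without mutant replicate 2 (adjusted p = 0.0387) and without rescued replicate 2 (adjusted p = 0.0493), within a range of 0.0204 to 0.164. Within single arrays, the Tgfbr2 minus Tgfbr1 log2 difference was −2.04 to −1.78 in WT, −0.61 to −0.50 in mutant and −1.13 to −0.75 in rescued pools. These values show unequal change of the receptor genes and no ratio of receptor molecules.

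With the same symbols left out, the genes with the profile closest to Tgfbr1 were Mettl15 (root mean square distance 0.044 on the log2 scale over 9 arrays), Dus2 (0.058) and Plekhg5 (0.06). Mettl15 encodes a methyltransferase of mitochondrial ribosomal RNA and Dus2 a dihydrouridine synthase of transfer RNA. Mettl15 averaged 8.06, 7.56 and 7.66 in WT, mutant and rescued pools.

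Ltbp1, the gene for a latent TGF-beta binding protein that anchors the latent complex in the matrix, had log2 intensities of 9.03, 9.24 and 8.48 in WT, 10.11, 10.07 and 10.07 in mutant and 9.63, 9.63 and 9.16 in rescued pools. All mutant pools lay above all rescued pools, and rescued replicate 3 fell among the WT values. Mutant Ltbp1 was 2.24-fold higher than WT (log2 difference 1.16, SE 0.19, limma adjusted p = 0.000994), a call kept in 17 of 17 alternatives. Its rescued minus mutant difference was −0.61 (95% interval −1.03 to −0.19, adjusted p = 0.0603) and its rescued minus WT difference 0.55 (0.14 to 0.97, adjusted p = 0.0823). The mutant SD was 0.02 against 0.39 in WT and 0.27 in rescued pools. The rescued minus mutant difference passed without WT replicate 2 (adjusted p = 0.0451) or WT replicate 3 (adjusted p = 0.0165), within a range of 0.0165 to 0.191, and the rescued minus WT difference passed without rescued replicate 3 (adjusted p = 0.0354) or WT replicate 2 (adjusted p = 0.0449), within a range of 0.0354 to 0.234.

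Tgfbi, the gene for a TGF-beta-induced matrix protein that is abundant in the cornea and mutated in human corneal dystrophies, had log2 intensities of 13.40 to 13.42 in WT, 13.39 to 13.45 in mutant and 13.39 to 13.40 in rescued pools. These lie near the top of the measured range, which ends at 14.32, and whether the signal was still proportional to RNA there was not tested. The mutant minus WT difference was 0.0004 (95% interval −0.12 to 0.12, limma adjusted p = 0.997), and the other differences were −0.01 each (adjusted p = 0.909 and 0.912).

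**Figure D2:**
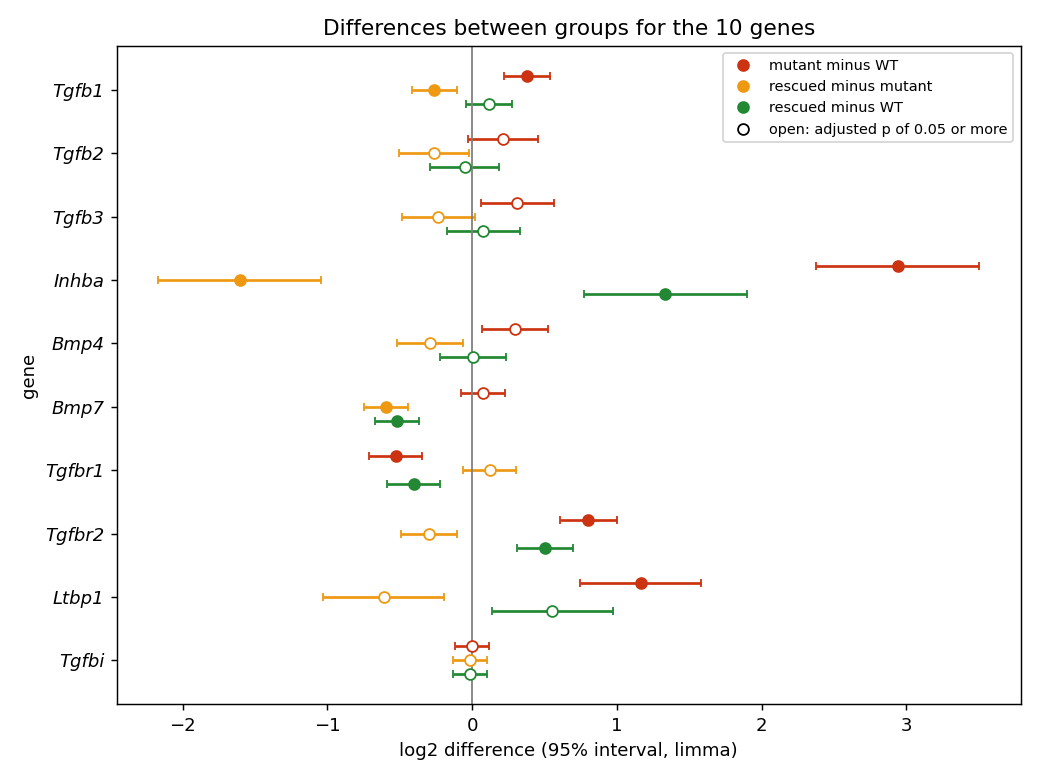
Log2 differences (horizontal axis) of the 10 genes (vertical axis) between the groups, with 95% intervals from limma; red is mutant minus WT, orange rescued minus mutant and green rescued minus WT, and open points did not pass an adjusted p of 0.05. Inhba stands furthest from 0 in each comparison, the mutant minus WT point of Bmp7 is open and its other points are filled, and Tgfbr1 and Tgfbr2 lie on opposite sides of 0 for mutant minus WT.

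Beyond these genes, 121 of 131 listed genes of the pathway were measured, and the other 10 were not analysed here. Genes with every group mean under 6.77 were kept in the counts of each list and in the shares over all genes. The lists and these shares were not matched for brightness, and the lists were chosen with earlier results of these data known. Between mutant and WT 37 were higher and 19 lower (46.3%, against 31.6% of all genes), with a median log2 difference of 0.07. Between rescued and mutant 8 were higher and 19 lower (22.3%, against 13.3%), with a median of −0.03. Between rescued and WT 25 were higher and 10 lower (28.9%, against 13.7%), with a median of 0.03. Without rescued replicate 1 the 25 higher genes became 15, without rescued replicate 2 they became 14 and without WT replicate 2 they became 15.

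Of 12 other ligands of the TGF-beta, activin and nodal type, none passed in any comparison (limma). At an unadjusted p under 0.05 (limma), 1 was higher in mutant than WT and 1 lower in rescued than mutant. Inhbc, Inhbe, Gdf3, Gdf9, Gdf11, Mstn, Lefty1, Lefty2 and Amh had every group mean under 6.77, so their values cannot show whether they changed. Of 13 other BMP and growth differentiation factor ligands, 1 was higher and 3 lower in mutant than in WT (30.8%, against 31.6% of all genes). Without WT replicate 3 the counts were 3 higher and 2 lower. Bmp5, Bmp8b, Bmp10, Gdf6, Gdf7 and Gdf10 had every group mean under 6.77. Bmp2, the gene for a BMP ligand of epithelial and bone development, was at least 2.24-fold higher (log2 difference 1.16, adjusted p = 0.000167): it had 6.2 to 6.40 in WT, 7.27 to 7.80 in mutant and 6.53 to 6.86 in rescued pools. Rescued Bmp2, whose mean of 6.71 lay under 6.77, was at least 1.70-fold lower than mutant (adjusted p = 0.00637). Bmp15, an oocyte ligand gene, was 1.31-fold lower in mutant than in WT. Bmp6 was at least 1.35-fold lower (adjusted p = 0.0256), a call lost without mutant replicate 1, mutant replicate 2 or WT replicate 3 (range over its alternatives 0.0075 to 0.0878).

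Of 16 other receptors and coreceptors, 4 were higher and 4 lower in mutant than in WT (50%, against 31.6% of all genes). Eng, the gene for endoglin, an endothelial coreceptor, was 2.75-fold higher, at 8.36 ± 0.37 in WT and 9.82 ± 0.29 in mutant pools, and it was 1.87-fold higher in rescued pools (9.27 ± 0.08) than in WT. Tgfbr3, the gene for betaglycan, which presents TGF-beta to its receptors, was 1.79-fold lower in mutant than in WT, at 10.68 ± 0.11 and 9.84 ± 0.03. It lay at 10.16 ± 0.04 in rescued pools, below every WT pool. Acvr1b, the gene for a type I activin receptor, was 1.70-fold lower in mutant than in WT and 1.55-fold lower in rescued than in WT, with 10.74 ± 0.06, 9.97 ± 0.14 and 10.11 ± 0.12 in WT, mutant and rescued pools.

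Of 14 genes for latency, storage and activation, 8 were higher and 1 lower in mutant than in WT (64.3%, against 31.6% of all genes), with a median log2 difference of 0.28 against −0.016 over all genes. Itgb6, the gene for the epithelial integrin subunit that with its alpha partner releases latent TGF-beta, was 2.76-fold higher (log2 difference 1.47, SE 0.11, limma adjusted p = 7.15e-06), at 8.26 to 8.37 in WT and 9.67 to 9.88 in mutant pools. The rescued pools had 8.80 to 9.19, which was 1.68-fold lower than mutant and 1.65-fold higher than WT. Lrrc32, the gene for the latent TGF-beta docking protein GARP, was 2.09-fold higher in mutant than WT pools. Tll1, the gene for a tolloid-like protease, was at least 2.61-fold lower in mutant and at least 2.85-fold lower in rescued pools relative to WT; its mutant and rescued means both lay under 6.77, so that no difference between them is given.

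Of 18 extracellular antagonists, 4 were higher and 4 lower in mutant than in WT (44.4%, against 31.6% of all genes). Htra1, the gene for a serine protease that can inhibit TGF-beta family signalling, was 2.02-fold higher, and Fstl3, the gene for an activin-binding follistatin-like protein, 1.52-fold higher. Fst, the gene for follistatin, which binds activin and was chosen here after its values were seen, was 1.41-fold lower in mutant than in WT (log2 difference −0.50, limma adjusted p = 0.00249) and 1.38-fold higher in rescued than in mutant (adjusted p = 0.0105). Fst averaged 8.71 in WT, 8.21 in mutant and 8.67 in rescued pools, while Fstl3 averaged 8.86, 9.46 and 8.90. Sostdc1, the gene for a BMP and Wnt antagonist, was 1.43-fold higher in mutant than WT pools (log2 difference 0.52, adjusted p = 0.0135).

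Of 9 Smad and Smad-adaptor genes, 2 were higher and 2 lower in mutant than in WT (44.4%, against 31.6% of all genes). Smad4, the gene for the Smad shared by both branches, was 2.12-fold higher (log2 difference 1.08, SE 0.08, limma adjusted p = 1.12e-05), at 10.83 to 10.92 in WT and 11.88 to 12.02 in mutant pools. It lay at 11.07 to 11.38 in rescued pools and was 1.66-fold lower there than in mutant (adjusted p = 0.000511). Smad1, a Smad of the BMP branch, was 1.64-fold higher in mutant and 1.37-fold higher in rescued than in WT, and Smad3, of the TGF-beta branch, was 1.33-fold lower in mutant than in WT.

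Of 13 intracellular inhibitors, several of which TGF-beta itself induces, 6 were higher and 1 lower in mutant than in WT (53.8%, against 31.6% of all genes). Pmepa1, the gene for a membrane protein that sequesters Smad2 and Smad3, was 2.56-fold higher, at 8.27 ± 0.25 in WT and 9.62 ± 0.10 in mutant pools, and Skil, the gene for the Smad repressor SnoN, 2.42-fold higher, at 7.93 ± 0.12 and 9.20 ± 0.05. In rescued pools Pmepa1 lay at 8.80 ± 0.15 and Skil at 8.47 ± 0.27, in both cases lower than mutant (limma adjusted p = 0.00237 and 0.00424). Smurf1, the gene for a ubiquitin ligase of Smads and receptors, was 1.57-fold higher in mutant than WT pools. The lower gene was Smad6, the inhibitory Smad of the BMP branch, at 1.47-fold lower (adjusted p = 0.000195); Smad7, the inhibitory Smad of the TGF-beta branch, was 1.25-fold higher (adjusted p = 0.00628). Smad6 and Smad7 were chosen after their values were seen.

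**Figure D3:**
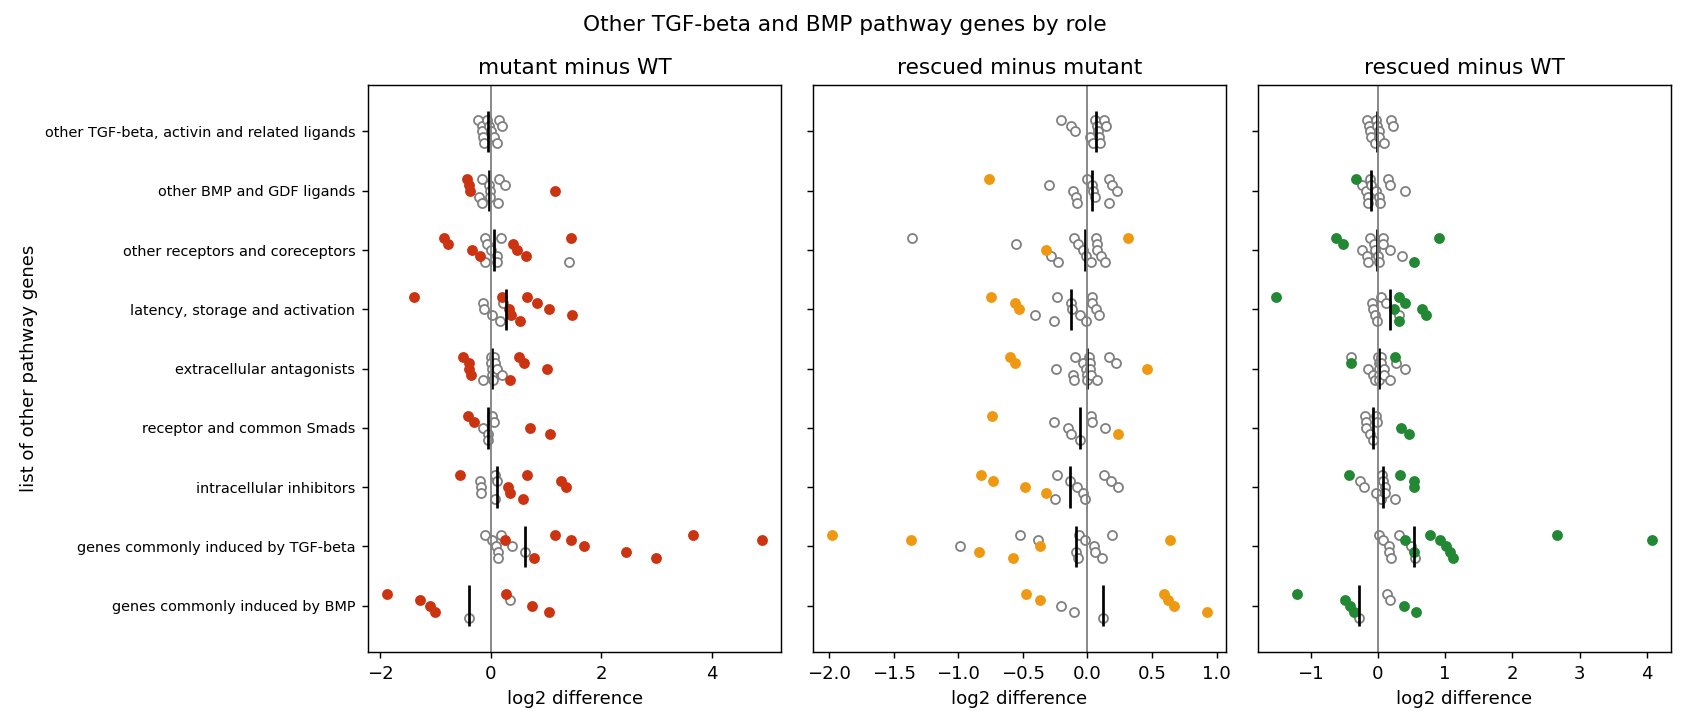
Log2 difference (horizontal axis) of each of 121 other pathway genes by role (vertical axis) in the 3 comparisons, whose horizontal scales differ; filled points passed an adjusted p of 0.05 (limma), open points did not, and the black bar is the list median. The list of genes commonly induced by TGF-beta has a median of 0.62 for mutant minus WT and 9 called members, all higher, whereas the list of genes commonly induced by BMP has called members on both sides of 0.

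Of 17 genes commonly induced by TGF-beta, 9 were higher and none was lower in mutant than in WT (52.9%, against 31.6% of all genes), with a median log2 difference of 0.62. The other 8 (Col1a1, Col1a2, Fn1, Postn, Sparc, Snai1, Junb and Cdkn2b) were not called in this comparison. At an unadjusted p under 0.05 (limma), 10 were higher and none was lower, against 18.9% of all genes higher and 21.1% lower at that threshold. Acta2, the smooth muscle alpha-actin gene of myofibroblasts and pericytes, was 30.1-fold higher, Tnc, the tenascin C gene, at least 12.6-fold and Tagln, the transgelin gene, 7.97-fold. Mutant Acta2 (13.80 to 13.88) also lay near the top of the measured range, and whether its signal was still proportional to RNA was not tested. Acta2 and Tagln are also known direct targets of serum response factor. Acta2 lay at 13.05, 13.29 and 12.67 in rescued pools against 13.84 ± 0.04 in mutant and 8.93 ± 0.37 in WT pools, whereas rescued Tagln lay at 8.60 ± 0.31 against 10.58 ± 0.35 and 7.58 ± 0.10. Rescued Tnc values were 9.63, 9.28 and 8.09, with replicate 3 the lowest, and all lay above the WT range of 6.18 to 6.56. Between rescued and mutant 5 of the 17 were lower and 1, Cdkn2b, was higher, against 6.88% of all genes lower and 6.46% higher; the 5 became 3 without mutant replicate 1, mutant replicate 3 or rescued replicate 3. Cdkn2b, the gene for the cell cycle inhibitor p15, which was chosen after its values were seen, was 1.56-fold higher in rescued than in mutant (adjusted p = 0.00296) and 1.45-fold higher than in WT, with a mutant minus WT difference of −0.10.

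Of 9 genes commonly induced by BMP, 3 were higher and 4 lower in mutant than in WT (77.8%, against 31.6%), with a median log2 difference of −0.40. Id2, the gene for a dominant-negative helix-loop-helix protein, was 2.42-fold lower in mutant than in WT (log2 difference −1.28, SE 0.10, limma adjusted p = 1e-05) and 1.90-fold higher in rescued than in mutant, at 12.57 to 12.62, 11.16 to 11.44 and 12.05 to 12.37 in WT, mutant and rescued pools. Its relative Id4, chosen after its values were seen like Id1 and Id3, was 2.02-fold lower in mutant than in WT. Id1 and Id3 went the other way, at 2.07-fold and 1.68-fold higher in mutant than in WT (adjusted p = 2.72e-05 and 0.000119). Dlx5 and Dlx3, homeobox genes of ectodermal differentiation, were at least 3.68-fold and 2.15-fold lower in mutant than in WT. Dlx5 averaged 8.55, 6.67 and 7.34 in WT, mutant and rescued pools, and Dlx3 averaged 8.35, 7.24 and 7.87. Relative to WT, mutant corneas thus had higher Id1 and Id3 and lower Id2 and Id4.

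**Figure D4:**
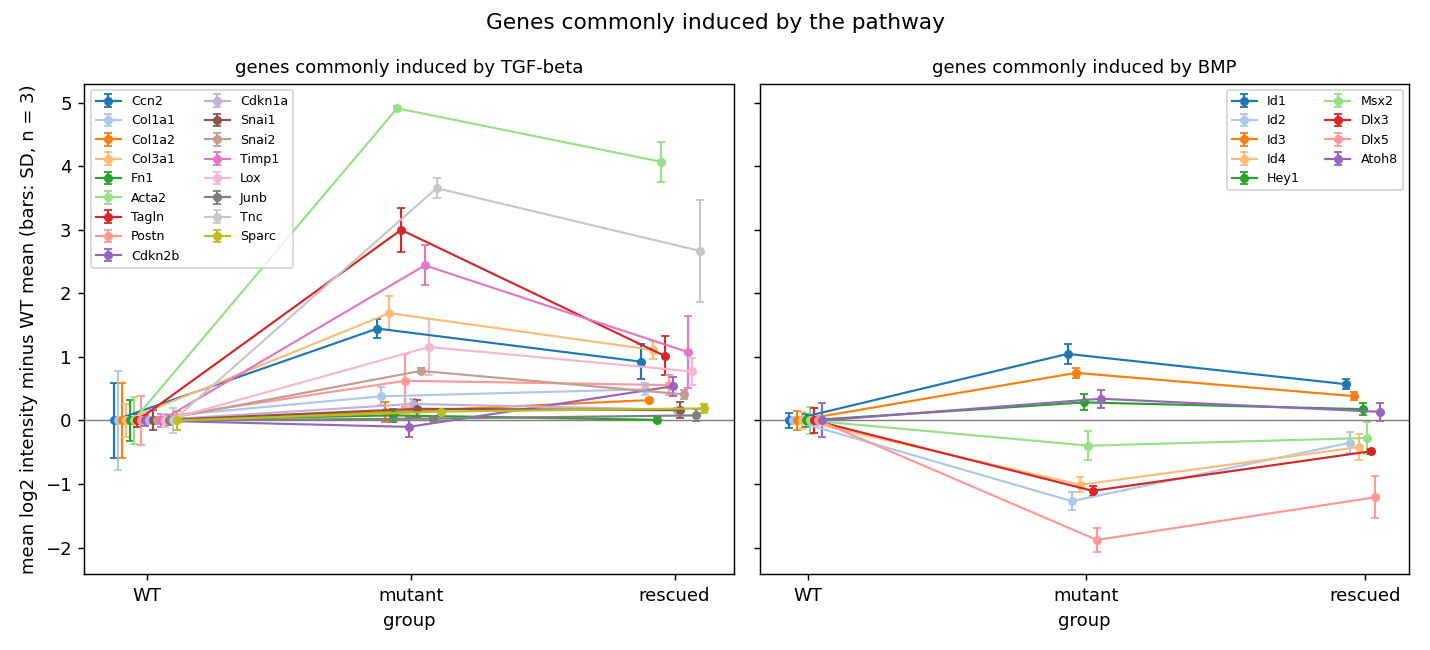
Group mean log2 intensity minus the WT mean (vertical axis) for the measured genes commonly induced by TGF-beta (left) and by BMP (right) in WT, mutant and rescued corneas, with bars of 1 SD (n = 3 pools); points of different genes are shifted sideways. Acta2, Tnc and Tagln stand highest on the left in mutant pools, and on the right Id1 and Id3 lie above 0 and Id2, Id4, Dlx3 and Dlx5 below it.

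Markers of other cell types also differed between groups. Between mutant and WT, 31.6% of all genes were called, 15.1% higher and 16.5% lower. The marker counts below are for this comparison. Of 8 blood endothelial markers 7 were higher and 1 lower in mutant than in WT; their mean log2 intensity was 6.47 to 6.56 in WT, 8.01 to 8.55 in mutant and 7.60 to 7.96 in rescued pools, and 6 of the 8 group means lay under 6.77 in WT. Of 6 pericyte markers 4 were higher, with means of 7.16 to 7.24, 8.65 to 8.98 and 8.12 to 8.35. Of 9 macrophage markers 8 were higher and 1 lower, with means of 7.32 to 7.44, 8.23 to 8.85 and 8.14 to 8.54. Of 7 neutrophil markers 3 were higher, with means of 5.69 to 5.81, 6.25 to 6.56 and 5.88 to 6.04, and 5 of the 7 (S100a8, Camp, Mpo, Elane and Ly6g) lay under 6.77 in all 3 groups, S100a8 being 1 of the 3 called. Means of these 4 lists had the same order of groups (WT lowest, mutant highest) as Inhba, Ltbp1, Tgfbr2, Eng, Lrrc32, Acta2, Tnc and Tagln. The conjunctival and platelet lists had this order too. The mutant and rescued macrophage ranges overlapped. Itgam (10.33, 9.20 and 10.59 in WT, mutant and rescued pools) and Lyz2 (7.74, 9.47 and 9.54) did not follow this order. Neither did the endothelial marker Kdr (9.06, 8.48 and 8.47) or the pericyte marker Pdgfrb (9.75, 9.70 and 9.58). The neutrophil markers Mpo, Elane and Ly6g, all under 6.77, did not follow it either. The part of these lists in the values of those genes was not tested.

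Of 5 corneal epithelial markers, 2 were higher in mutant than in WT (log2 difference 1.22 for Krt14 and 0.44 for Cdh1). The other 3 were lower (−0.68 for Pax6, −0.47 for Aldh3a1 and −0.42 for Krt12), so the mean of the 5 markers hides opposite changes. Of all genes, 31.6% were called in this comparison, 15.1% higher and 16.5% lower, against 42.9% of lens and 25% of platelet markers. Of 7 keratocyte markers 4 were lower, with means of 11.32 to 11.57 in WT, 11.03 to 11.28 in mutant and 11.24 to 11.41 in rescued pools, and all 4 corneal endothelial markers were lower, with means of 10.41 to 10.47, 9.87 to 10.07 and 10.15 to 10.25. Of 7 lens markers 3 were lower, with means of 8.77 to 9.13, 7.81 to 8.62 and 7.62 to 7.95, of 7 conjunctival markers 5 were higher, with means of 7.84 to 8.06, 9.19 to 9.35 and 8.70 to 9.10, and of 4 platelet markers 1 was higher. The part of these lists in the values of Tgfbr1, Tgfbr3 and the other genes was not tested.

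**Figure D5:**
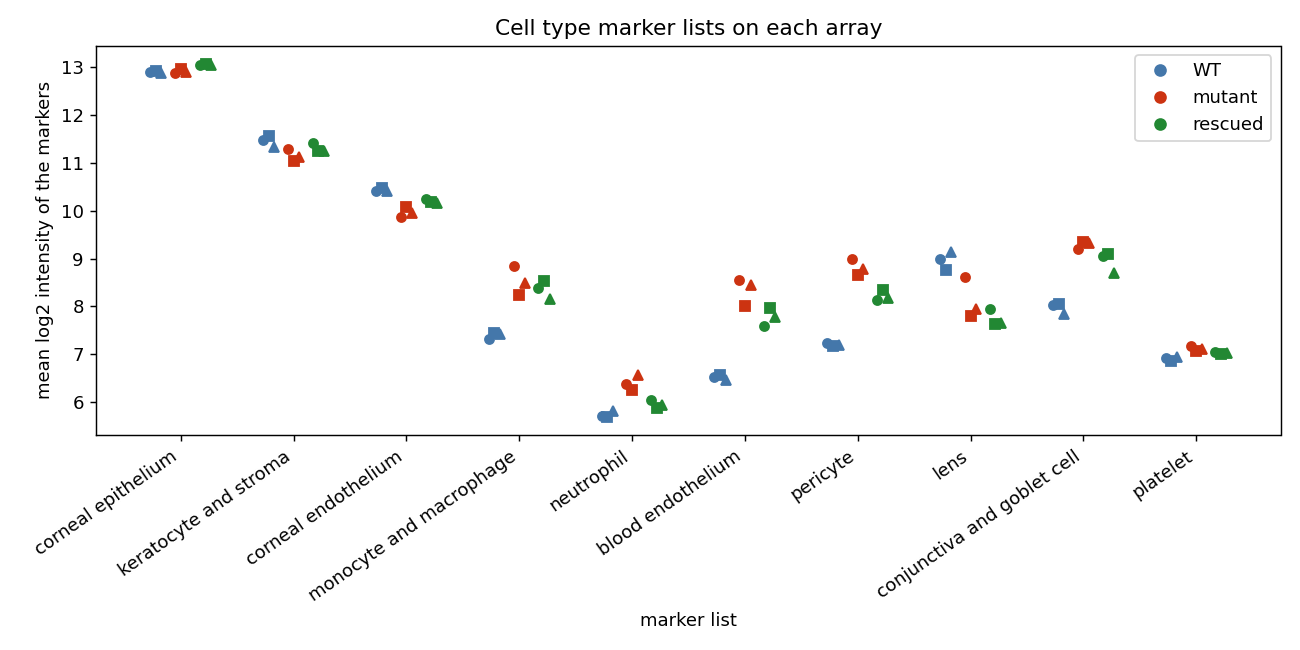
Mean log2 intensity (vertical axis) of each cell type marker list (horizontal axis) on the 9 arrays, with WT in blue, mutant in red and rescued in green; circles, squares and triangles are replicates 1, 2 and 3. Blood endothelial, pericyte and macrophage lists are lowest in WT pools, while the corneal epithelial list lies between 12.88 and 13.07 on every array. That corneal epithelial mean combines markers that were higher and markers that were lower in mutant than in WT.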

How the data were processed

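Per the labels' protocols, Trizol was used for total RNA, the Ambion WT Expression kit for amplification and the Affymetrix WT Terminal Labeling kit for biotin labelling. The values deposited by the authors are log2 intensities on 41345 rows; neither normalisation software nor genome build is given in these sources, and the range of 2.14 to 14.32 served to infer base 2. Array medians ran from 6.75 to 6.78. Rows with exactly 1 annotated symbol (23521) were used, with the brightest row per gene by its mean over the 9 arrays, which left 22180 genes and no filter on intensity. The 3 comparisons were fitted with limma 3.58.1 (R 4.3.3) over all arrays, two-sided, with Benjamini-Hochberg adjustment over all genes, and checked on simulated data. Nothing says that the replicate pools came from separate litters or days, so p-values measure the spread between these pools. The number of arrays limits the precision.

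The genes and lists were chosen with earlier results of these data known. The text names the 10 genes, Dstn, Srf and up to 3 called genes per pathway list with the largest mutant minus WT difference. It also names the 3 genes closest in profile to the called members with the largest increase and decrease. Symbols of gene models, clones, small RNAs and olfactory or vomeronasal receptors were left out of that search. Fst, Smad6, Smad7, Cdkn2b, Id1, Id3 and Id4 were picked with their values in view. The 17 alternatives were quantile normalisation, centring on array medians, a filter at the median of all rows, averaging the rows of a gene, the 6 arrays of a comparison alone, trend and robust options, weights per array, a block for the replicate number and leaving out each of 9 arrays. Motifs were searched in RefSeq promoter windows of 250 bases. Figures were drawn with matplotlib 3.10.9 (Python 3.11.15).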

Additional observations from a re-analysis of the deposited data

How the results depend on the processing

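Of 30 differences of the 10 genes, 12 were called, and 11 of those stayed called in all 17 alternatives, with none reversed; the exception was Tgfb1 between rescued and mutant. Values near 0 changed sign when an array was left out: Tgfbi for mutant minus WT (−0.018 without mutant replicate 1, −0.0004 without WT replicate 2 and −0.0022 without WT replicate 3, up to 0.0097 without mutant replicate 3) and for rescued minus mutant (0.0047 without mutant replicate 1, down to −0.023 without mutant replicate 3), and for rescued minus WT Tgfb2 (0.0249 without rescued replicate 3, down to −0.1246 without WT replicate 2), Tgfb3 (−0.0255 without WT replicate 3, up to 0.1289 without WT replicate 1) and Bmp4 (−0.01 without rescued replicate 1, −0.1036 without WT replicate 1, up to 0.0855 without WT replicate 3). With the filter at the median of all rows, which left 12696 genes, 5 of the 10 genes were called between rescued and mutant in place of 3; Bmp4 was removed by this filter. With 1 array left out, the genes called over the whole table ranged from 1808 to 2795 between rescued and mutant (2959 with all arrays), from 1812 to 2975 between rescued and WT (3042) and from 5913 to 6948 between mutant and WT (7004), and the other pathway genes called between rescued and WT from 22 to 38 (35). The deviations of same-numbered arrays from their group means correlated at −0.0157 to 0.0632 across genes, against −0.0951 to 0.08 for arrays of different number. With 3 arrays a group this cannot show whether the replicate numbers pair the arrays. With the replicate block, Tgfb1 lost its call between rescued and mutant (adjusted p = 0.0774), and Bmp4 between mutant and WT (0.0419) and Ltbp1 between rescued and mutant (0.0265) and between rescued and WT (0.0364) gained one. Quantile normalisation and centring moved the median of all genes by less than 0.1 and turned no called difference of the 10 genes. Rows under 6.77 carry signal not shown to exceed background, which touches Inhba in WT and Bmp4 in WT and rescued pools.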
